A study of Mus musculus with 9 samples.

Results

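In mouse gastrocnemius, the large calf muscle, 202 of the 56791 genes counted had no count in any library of animals given ginkgolide B (GB) while each had at least 5 counts in every vehicle library. Clustered protocadherins (symbols starting with Pcdh) were left out by the rule; 5 of them met the same counts. The raw counts of all 9 libraries chose these genes, so the difference between GB and vehicle is what defines them. It is given below as a description and was not tested. The rule gave 347 genes without GB replicate 2 and 325 without GB replicate 3, and 216 to 284 without any other single library. Of the 16175 genes with at least 5 counts in each vehicle library, 207 were at 0 in each GB library (1.28%), the protocadherins included.

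RNA sequencing was done on muscle of female mice in 3 groups with 3 libraries each. The young vehicle group (title label 3M) and the aged vehicle group (title label 23M) received saline. The third group was aged mice given GB, a terpene lactone of the ginkgo tree, at 12 mg per kg by daily gavage for 2 months. The titles of the GB libraries hold no age value. No allele, transgene or strain difference between the groups is given in the labels. Nothing in them says that each library is a separate animal; the p-values below reflect the variation among the libraries sequenced, and part of it may be technical. Every GB library was a treated one and no batch is given, so effects of the preparation and of GB cannot be told apart. In whole muscle, fewer cells of a type and less RNA per cell cannot be told apart either.

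Most transcripts from a mammalian genome are not messenger RNAs. Introns are removed from a primary transcript in the nucleus and degraded, and sequencing reads that fall in them can be assigned to small gene models annotated there. Antisense RNAs are transcribed from the strand opposite a known gene. Processed pseudogenes are copies of messenger RNAs inserted back into the genome. TEC is the annotators' label for loci, often with a single exon, whose transcripts still await experimental proof. Library kits that capture poly(A) tails, such as the mRNA kit named in the labels, favour mature messenger RNAs over intron-derived RNA.

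The vehicle libraries held 51543383 to 61680520 counts and the GB libraries 39478427 to 44294097. The TMM factor, which corrects a library's total for its composition, was 1.09 to 1.17 with vehicle and 0.752 to 0.797 with GB. Genes with any count numbered 22616 to 24185 with vehicle and 18678 to 19362 with GB. The 14 muscle fibre markers were all present in the 9 libraries. Their summed levels in CPM (counts relative to library size, TMM-scaled throughout) were 143298 to 156262 in young vehicle, 109807 to 122609 in aged vehicle and 152921 to 176224 in GB libraries. Single markers differed in direction. Myh1 had 531340 to 742363 counts with aged vehicle and 17491 to 20869 with GB, and Myl1 had 339452 to 362728 and 478428 to 623374. Among genes with 1 to 20 counts, 66.0 to 67.7% had an even count with vehicle and 74.8 to 75.9% with GB. Genes with 2 counts outnumbered genes with 1 count in all 9 libraries. A count may therefore not be an independent fragment, and the limits given for counts of 0 cover counting error only. Of the members' own vehicle counts between 5 and 20, 386 of 659 were even (58.6%).

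Few members carried the symbol of a characterised gene. Of the 202, 136 were predicted genes with a Gm number, 21 were RIKEN clones and 2 were named by an accession. Predicted genes made up 67.3% of the members and 10.01% of the other genes with at least 5 counts in each vehicle library. Symbols that are gene names numbered 43. Zinc finger genes, with 421 eligible genes, had 0 members. Ribosomal protein genes (82 eligible), cytokines, chemokines and their receptors (92) and histones (27) also had 0 members. Over all eligible protein-coding genes 0.278% were members (37 of 13323), so 0 in classes of this size does not set them apart.

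Gene types were read from the GENCODE M21 annotation, in which 181 of the 202 symbols matched (89.6%). TEC loci were the most frequent type with 40 members, followed by antisense RNAs with 37, protein-coding genes with 37 and processed pseudogenes with 32. Another 10 were sense intronic RNAs, which lie in an intron and are read in the direction of the surrounding gene. As a share of the eligible genes of a type, 30.3% of sense intronic RNAs (10 of 33) and 17% of TEC loci (40 of 235) were members. The share was 8.24% for antisense RNAs (37 of 449), 5.48% for processed pseudogenes (32 of 584) and 1.85% for lincRNAs, long RNAs from between genes (7 of 378). It was 0.278% for protein-coding genes (37 of 13323), which made up 83.2% of the other eligible genes and 18.3% of the members.

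**Figure D1:**
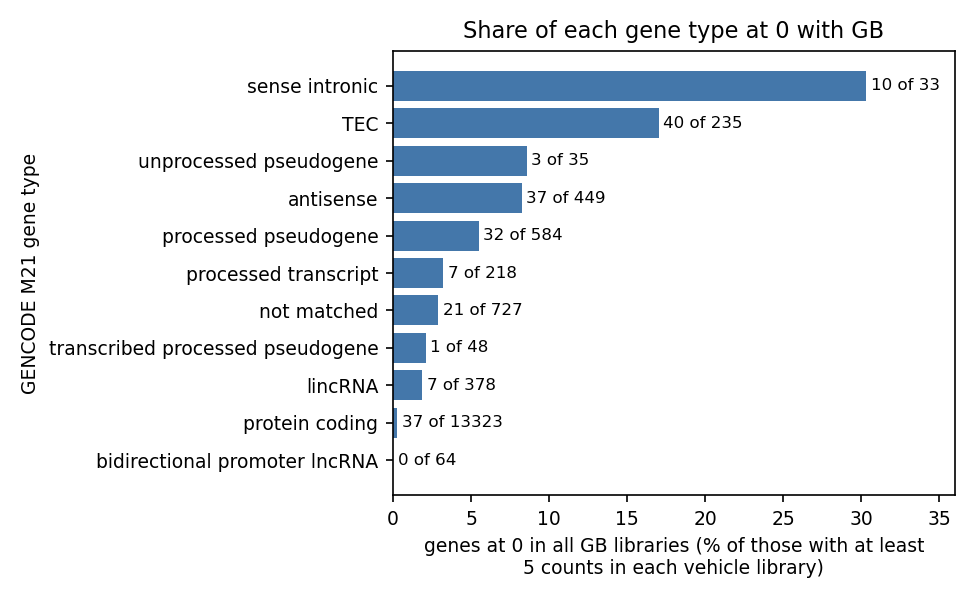
Share of each GENCODE M21 gene type that was at 0 in all GB libraries, as a percentage (horizontal axis) of the genes of that type with at least 5 counts in each vehicle library; the members and eligible genes are printed beside each bar. Sense intronic RNAs (10 of 33) and TEC loci (40 of 235) have the longest bars, and protein-coding genes (37 of 13323) a short one.

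Small RNA genes contributed 3 microRNAs, 3 small nucleolar RNAs and 1 small nuclear RNA. MicroRNAs are cut from a hairpin precursor and guide silencing through the seed, bases 2 to 8 of the mature strand. A poly(A) library does not capture the mature strand, so counts at these loci are not mature microRNA levels. Mature sequences listed by RefSeq (GRCm38.p6) for the 3 loci are shown to identify them, for Mir1a-1 the 5p arm only. They are written 5′ to 3′ on the plus strand of the genome, with the seed in capitals:
mmu-miR-1a-1-5p: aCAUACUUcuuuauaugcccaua
mmu-miR-186-5p: cAAAGAAUucuccuuuugggcu
mmu-miR-186-3p: gCCCUAAGgugaauuuuuuggg
mmu-miR-8091: aGGAGUGAgugguaagcuggug

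No seed was shared between these strands. Mir1a-1, a locus of the muscle microRNA miR-1, had 15, 8 and 28 counts in young and 56, 40 and 27 in aged vehicle libraries, with all GB libraries at 0. Mir186, with an annotated length of 71 bases, had 15, 11 and 21 counts in young and 29, 12 and 21 in aged vehicle libraries. The Mir186 hairpin, with both mature arms in capitals, fills that gene model:
Mir186: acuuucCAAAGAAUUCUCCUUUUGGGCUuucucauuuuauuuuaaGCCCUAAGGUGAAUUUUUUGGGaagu

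Mir186 lies in an intron of Zranb2, which encodes an RNA-binding splicing protein, on the same strand. Zranb2 kept 2337 to 2582 counts in the GB libraries against 2752 to 3967 with vehicle. At the ratio of the 2 genes in aged vehicle libraries, 42.0 Mir186 counts would have been present over the 3 GB libraries. Mir8091 had 8 to 15 counts in young and 6 to 11 in aged vehicle libraries. The small nucleolar RNA gene Gm23706 (82 bases) had 7, 7 and 12 counts in young and 17, 14 and 9 in aged vehicle libraries, and Gm55831, the shortest member with 56 bases, had 26 to 48 and 28 to 56. The young and aged ranges overlapped for Mir186, Mir8091, Gm23706 and Gm55831.

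Many members lay within other genes. Of the 202, 47 lay inside an intron of a gene of the same strand, 23.3% of the members and 2.07% of the other eligible genes. As a share of the eligible genes so placed, this was 12.5% (47 of 377). Another 29 lay inside an intron of a gene of the opposite strand (6.55% of 443), and 49 overlapped an exon of an opposite-strand gene (1.14% of 4292). Of the genes that overlapped no other gene, 37 of 6816 were members (0.543%). Among the 40 TEC members, 28 lay in an intron of the same strand. Whether the counting used strand is not given in the sources used here, so for overlapping genes reads of either gene may have been counted to the other.

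The share of genes in same-strand introns was 18.7 to 25.8% in each of the 15 other versions of the rule, which left out a library or set another minimum count. It was 18.7% without GB replicate 2 and 21.2% without GB replicate 3. The protein-coding share was 17.3 to 26.8% over the same versions.

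Genes that held a member in an intron were mostly still counted with GB, as were eligible genes in general. For 43 members inside a same-strand intron, with no exon shared, the surrounding gene (host) had at least 5 counts in each vehicle library. Of these 43 hosts, 40 had a count in each GB library, near the share of all eligible genes (14929 of 16175, 92.3%). The ratio of the host's mean CPM in GB to that in aged vehicle libraries had a median of 0.946 (lowest 0.00684, highest 7.69), beside 0.944 over all eligible genes. It was above 1 for 20 hosts and below 1 for 23. By library totals the medians were 0.634 for the hosts and 0.636 for all eligible genes, and 11 hosts were above 1 and 32 below. Had each member kept its aged vehicle ratio to its host, a median of 50.7 counts would have been present over the 3 GB libraries, and more than 10 for 38 of the 43. These values use the contrast that chose the members and carry no test.

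**Figure D2:**
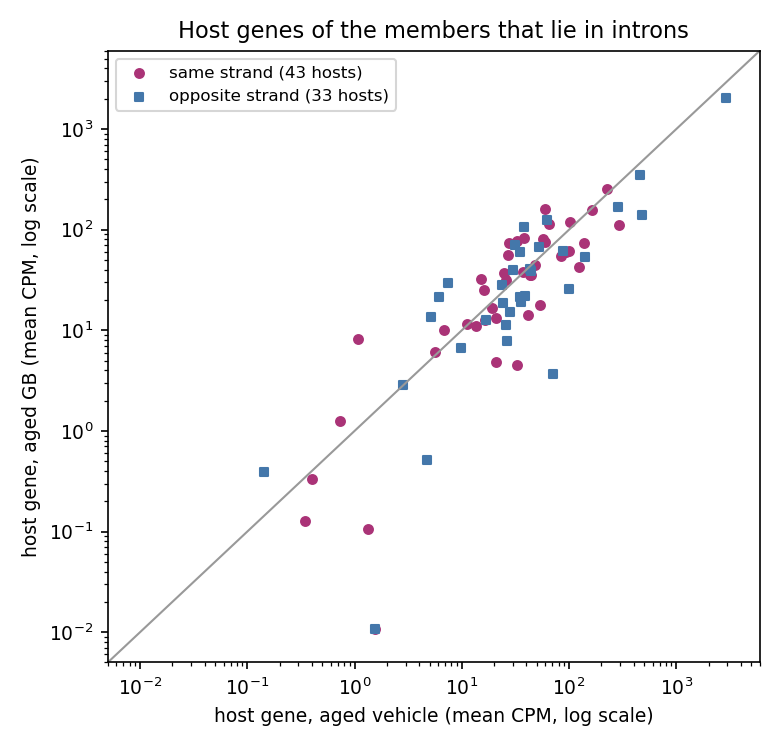
Mean CPM of the genes that hold a member in an intron, in aged vehicle (horizontal) and aged GB libraries (vertical), both on log scales; circles are hosts of the same strand (43), squares hosts of the opposite strand (33), and the line marks equal levels. Same-strand hosts lie on both sides of the line, 20 above and 23 below (11 and 32 by library totals), while every member inside them is at 0 with GB.

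Gm38372, a TEC locus of 4028 bases, lies in an intron of Pcmtd1, a member of the family of protein-aspartate methyltransferase domain genes. It had 22, 11 and 19 counts in young and 127, 162 and 160 in aged vehicle libraries. Pcmtd1 had 4268 to 5739 counts in young vehicle, 5739 to 6241 in aged vehicle and 1880 to 2078 in GB libraries. The expected Gm38372 count with GB at the aged ratio was 148. The nested locus was at 0 in libraries that still counted its host.

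The same held for Gm42664, which lies in Ptbp2, a splicing regulator. Gm42664 had 34, 19 and 59 counts in young and 253, 117 and 98 in aged vehicle libraries. Ptbp2 averaged 25.7 ± 5.90 CPM with aged vehicle against 31.8 ± 2.72 CPM with GB (SD, n = 3 each), and the expected Gm42664 count was 310. Gm28941, in the mitochondrial fission factor gene Mff, had 41, 60 and 64 counts in young and 105, 163 and 134 in aged vehicle libraries. Mff averaged 102 ± 2.79 CPM with aged vehicle against 119.8 ± 6.46 CPM with GB, and the expected Gm28941 count was 251. The GB to aged vehicle ratio of Ptbp2 was 1.24 by TMM-scaled CPM and 0.840 by library totals, and that of Mff 1.18 and 0.796, so their direction depends on the scaling. The expected counts rest on ratios within a library and do not depend on it.

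Other hosts were lower with GB by both scalings. Gm44667 lies in Mef2a, a muscle transcription factor gene, whose GB to aged vehicle ratio was 0.526, and 108 counts would have been present. For Gm38245 in Smyd2, a lysine methyltransferase gene, the ratio was 0.344 and the expected count 39.2. For Gm37677 in Ppp1r12b, a myosin phosphatase subunit gene, the values were 0.381 and 26.2. The fourth most abundant member with a placeholder symbol, Gm47798 in Ngly1 (a deglycosylating enzyme), had 55 to 128 counts in young and 107 to 215 in aged vehicle libraries, with a host ratio of 0.793 and an expected count of 186.

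In 3 same-strand hosts a GB library was at 0 as well. H60b, a ligand of an activating receptor of natural killer cells, holds Gm1972 in an intron and had 38 to 119 counts in the vehicle libraries and 1 count over the GB libraries. Fgfr2, a fibroblast growth factor receptor, holds Gm5903, and Rab43, a small GTPase, holds Gm44423. The expected GB counts of these 3 members were 0.160, 7.55 and 4.31. In aged vehicle libraries the per-length level of a member was a median of 8.48% of its host's (0.107 to 745%).

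An opposite-strand host was found for 34 members, 28 of the 29 above and 6 counted above under another position, 5 of them in same-strand introns. Of the 33 hosts, 30 had a count in each GB library, near the 92.3% of all eligible genes. The median host ratio was 0.743 (0.502 by library totals), and the expected GB count had a median of 32.6, above 10 for 31 members. Gm43980 in Tra2a, a splicing activator gene, had 182, 73 and 136 counts in young and 141, 127 and 194 in aged vehicle libraries. Tra2a had a ratio of 1.33, or 0.889 by library totals, and its level gives an expected Gm43980 count of 325. Gm38979 lies opposite Ryr1, the calcium release channel of muscle. Ryr1 had 151538 to 201443 counts with aged vehicle and 57808 to 69880 with GB, a ratio of 0.690, or 0.467 by library totals. Fndc9 lies in Cyfip2, whose ratio was 0.0513, and 6.71 counts would have been present.

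Genes in same-strand introns that kept a count with GB had more vehicle counts. These 330 genes had a median vehicle count of 62.3, against 20.8 for the 47 members, and a median length of 1799 against 1639 bases. The median GB to aged vehicle ratio of the 330 was 0.743.

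The members had low levels in vehicle libraries. Their mean vehicle count had a median of 19.9 (7 to 355), against 550 for the other eligible genes. In CPM the medians were 0.320 (0.112 to 5.61) and 8.76. The lowest count over the 6 vehicle libraries had a median of 9 and reached 225. The share of eligible genes at 0 with GB was 10.7% for a mean vehicle count under 15, 7.13% for 15 to 30, 2.80% for 30 to 60, 1.18% for 60 to 120 and 0.0427% from 120.

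Within classes of vehicle level the types still differed in share, but the order of the types changed with the class. For mean vehicle counts of 15 to 30, 30.3% of TEC loci (20 of 66), 26.1% of genes in same-strand introns (23 of 88) and 22.2% of sense intronic RNAs (2 of 9) were members, against 12.2% of antisense RNAs (17 of 139), 10.3% of processed pseudogenes (15 of 146), 3.42% of genes that overlap no other (16 of 468) and 2.64% of protein-coding genes (16 of 606). For counts of 60 to 120 the shares were 12.5% of TEC loci, 7.84% of genes in same-strand introns, 33.3% of sense intronic RNAs (2 of 6), 4.48% of antisense RNAs, 1.28% of processed pseudogenes, 0.172% of genes that overlap no other and 0.423% of protein-coding genes. Under 15 counts, a class with 53 members, TEC loci did not stand out. There 10.8% of TEC loci (4 of 37) were members, against 10.7% of all eligible genes (53 of 496). Antisense RNAs were at 15.2% (10 of 66) and processed pseudogenes at 13.95% (12 of 86). Genes in same-strand introns were at 18.6% (8 of 43), sense intronic RNAs at 80.0% (4 of 5) and protein-coding genes at 3.85% (6 of 156). Many TEC loci and sense intronic RNAs are themselves in same-strand introns. Genes are not replicates, and no test was made of these shares.

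**Figure D3:**
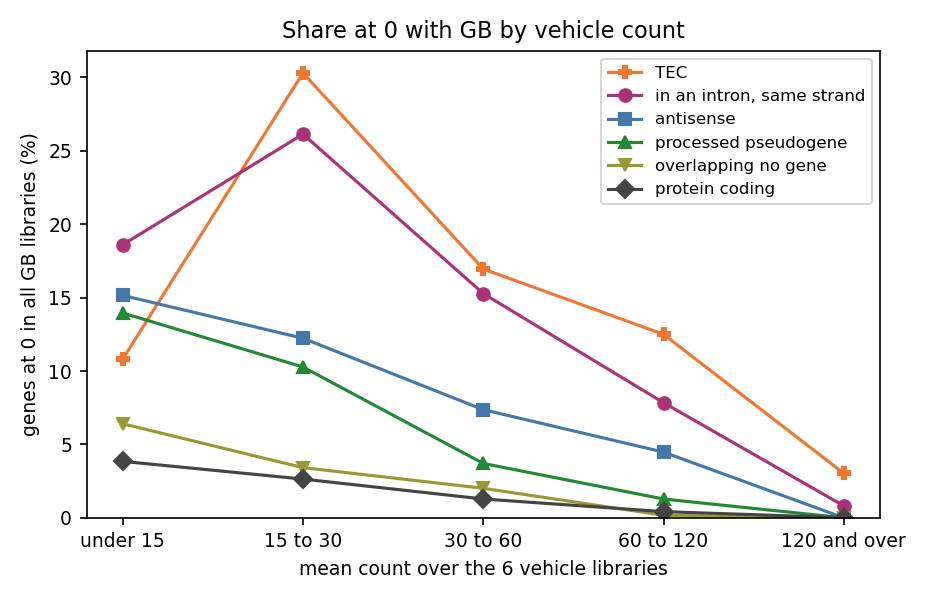
Share of genes at 0 in all GB libraries (vertical axis, %) by mean count over the 6 vehicle libraries (horizontal axis, 5 classes), among genes with at least 5 counts in each vehicle library; each line is a gene type or place. At counts of 15 to 30, TEC loci are at 30.3%, genes in same-strand introns at 26.1% and protein-coding genes at 2.64%. Under 15 counts, TEC loci are at 10.8%, genes in same-strand introns at 18.6% and protein-coding genes at 3.85%. Sense intronic RNAs, 5 to 9 genes a class, are not drawn.

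Read against the depth of the GB libraries, a member at its aged vehicle rate would have given a median of 48.8 counts over the 3 GB libraries (12.6 to 656) by library totals. By TMM-scaled sizes the median was 32.9 (8.49 to 442). With a floor of 3 counts over the GB group, the level with GB was at least 4.20-fold to 219-fold lower than in aged vehicle libraries by totals (median bound 16.3-fold). The bounds by TMM-scaled sizes ran from 2.83-fold to 147-fold (median 10.96-fold). The largest bound was that of Gm57213, a predicted gene of 356 bases with 481, 316 and 502 counts in young and 321, 287 and 225 in aged vehicle libraries. Gm57213 matched no gene of the annotation used.

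**Figure D4:**
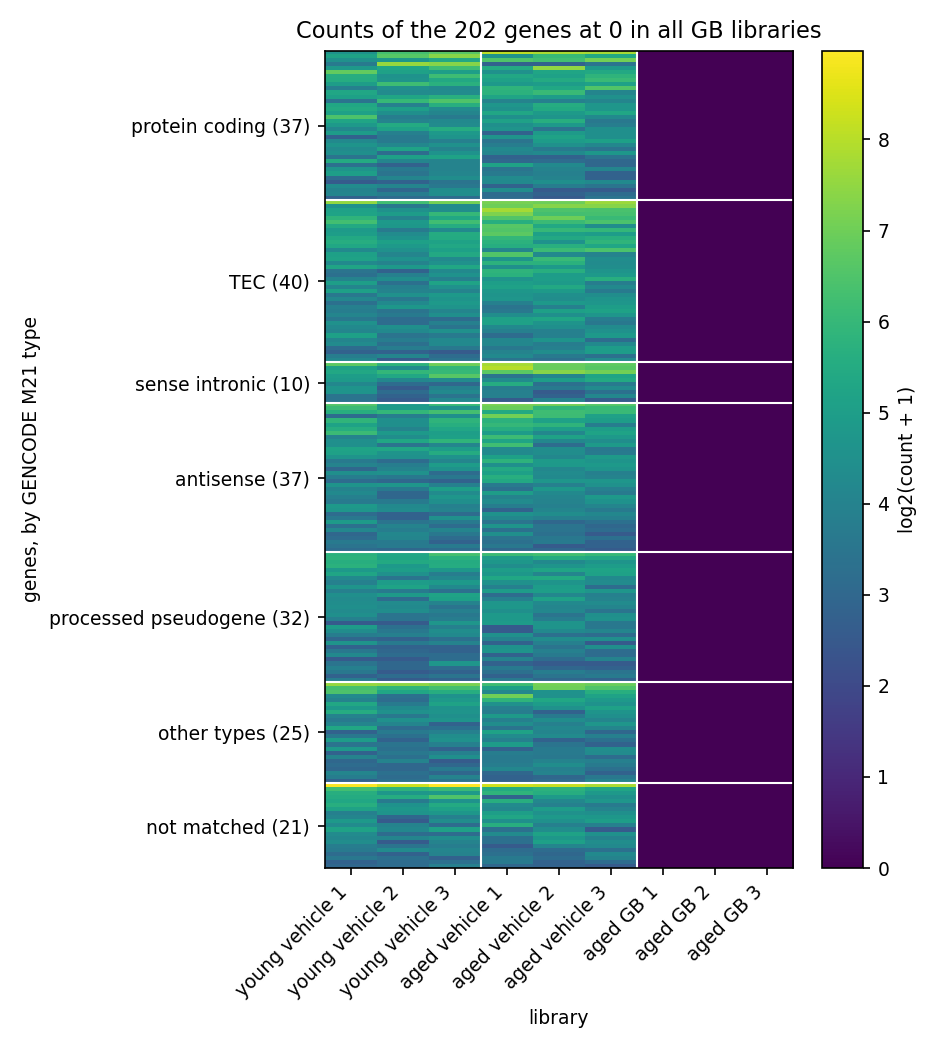
Counts of the 202 genes in the 9 libraries as log2(count + 1) in colour, 1 row per gene, grouped by GENCODE M21 type and ordered by vehicle level within a type. Each gene is above 0 in all 6 vehicle libraries and at 0 in all 3 GB libraries, which is the rule, and the brightest row is Gm57213 among the genes not matched.

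Members were short. Their length, the summed exon bases, had a median of 1566 bases (quartiles 699 and 2987, range 56 to 14579), against 4074 for the other eligible genes (2380 and 6439). Much of this lay between types. Protein-coding members had a median of 3357 bases and other protein-coding genes 4520, and members of other types had 1409 against 1577. Among genes of types other than protein coding, the share that were members was 7.01% up to 500 bases, 7.78% for 501 to 1000, 6.89% for 1001 to 2000 and 7.81% for 2001 to 4000. It was 3.53% for 4001 to 8000 bases and 0 of 46 above that. For protein-coding genes it lay between 0.173 and 1.38% in the length classes above 500 bases, and 0 of 19 shorter genes were members.

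A single exon was annotated for 92 of the 181 matched members (50.8%) and 8.50% of the other matched genes. The GC content had a median of 48.5% in members and 50.1% in the others. A run of 12 or more A in the longest transcript occurred in 11 members (6.08%) and in 11% of the others, whose transcripts were longer (median 3179 against 1559 bases). Within same-strand introns the shares with such a run were 8.51% of members (4 of 47) and 33 of the other 330 genes.

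The longest members were protein-coding genes. Arfgef3 (14579 bases), of a family of guanine nucleotide exchange factors, had 16, 13 and 20 counts in young and 8, 6 and 8 in aged vehicle libraries. Dnah6 (13247 bases), a heavy chain of the dynein motor of cilia, had 12 to 18 and 10 to 33. Both genes had few counts for their length.

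Of the 37 protein-coding members, 15 overlapped no other gene and 11 overlapped an exon of an opposite-strand gene. Lrtm2, which encodes a leucine-rich repeat membrane protein, had the most counts: 23, 77 and 98 in young and 265, 230 and 217 in aged vehicle libraries. All 3 aged libraries were above all young ones. With the floor of 3 counts over the GB group, its level would be 187-fold lower than in aged vehicle libraries by totals and 126-fold by TMM-scaled sizes. Lrtm2 lies within Cacna2d4, a calcium channel subunit gene of the opposite strand, which had 50 to 74 counts in young, 275 to 291 in aged vehicle and 0, 8 and 41 in GB libraries. Cacna2d4 was thus also low with GB, and 40.9 counts of Lrtm2 would have been present at the aged ratio.

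Some protein-coding members encode membrane receptors or signalling proteins. Epha3, an ephrin receptor tyrosine kinase, had 22, 26 and 42 counts in young and 90, 76 and 133 in aged vehicle libraries. Tlr9, the endosomal receptor for unmethylated DNA, had 111, 34 and 32 in young and 22, 38 and 42 in aged vehicle libraries. Young replicate 1 was the high library for Tlr9. Kcnk7, a gene of the 2-pore potassium channel family, had 19 to 39 in young and 16 to 67 in aged vehicle libraries. Shc3, a neuronal adaptor of receptor kinases, had 33 to 50 and 22 to 37, and Nos1ap, an adaptor of neuronal nitric oxide synthase, had 8 to 23 and 16 to 26. The young and aged ranges overlapped for Tlr9, Kcnk7, Shc3 and Nos1ap.

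Transcription and nuclear genes included Myocd, the cofactor of serum response factor in smooth and cardiac muscle, with 14, 21 and 18 counts in young and 56, 40 and 91 in aged vehicle libraries. At its aged vehicle rate 147 counts would have been present over the GB libraries. The 12 smooth muscle and pericyte markers were all counted with GB. Des, which skeletal muscle also expresses, made up most of their sum, and the other 11 summed to 697 to 733 CPM in young vehicle, 1046 to 1114 CPM in aged vehicle and 579.6 to 667 CPM in GB libraries. The part of these cells in the counts of Myocd was not tested. Npas1, a transcription factor gene of neurons, had 19 to 44 and 13 to 28 counts, and Aff2, a gene of a nuclear RNA-binding protein, had 17 to 46 and 10 to 24. Fen1, the flap endonuclease of DNA replication, had 17 to 24 and 13 to 22. Rec8, a cohesin subunit of meiosis, had 12 to 24 and 10 to 16.

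Knl1, a scaffold of the kinetochore, had 44, 16 and 15 counts in young and 7, 8 and 7 in aged vehicle libraries. The proliferation marker Mki67 had 399 counts in young replicate 1, 121 and 131 in the other young libraries, 61 to 62 with aged vehicle and 8 to 38 with GB. The 12 cell cycle markers, Mki67 among them, did not follow it as a set. They summed to 17.5 to 27.2 CPM in young vehicle, 9.76 to 10.9 CPM in aged vehicle and 10.6 to 13.6 CPM in GB libraries. The part of dividing cells in the counts of Knl1 was not tested. Kif24, a kinesin of the centriole, had 19 to 44 and 22 to 43 counts.

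Extracellular matrix and secreted products included Adamts4, an aggrecan-cleaving protease, with 35, 98 and 167 counts in young and 24, 65 and 42 in aged vehicle libraries. Col6a5, a collagen VI chain, had 10, 64 and 90 in young and 15, 14 and 16 in aged vehicle libraries, and Asprv1, an aspartic protease of the epidermis, had 12, 191 and 163 in young and 6, 6 and 10 in aged vehicle libraries. Young replicates 2 and 3 carried the high values of both. The 10 skin markers summed to 132 and 103 CPM in those libraries, 16.4 CPM in young replicate 1, 14.4 to 17.1 CPM with aged vehicle and 15.4 to 21.2 CPM with GB. Of the 10, 4 (Krt5, Krt1, Dsg1a and Dsc3) were at 0 in each GB library and also in each aged vehicle library. The part of skin in the counts of Asprv1 and Col6a5 was not tested. A1bg, a plasma glycoprotein gene, had 24 to 46 counts in young and 34 to 67 in aged vehicle libraries.

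Lamp3, like Tlr9, is known from immune cells. This lysosomal protein gene of mature dendritic cells had 32, 10 and 16 counts in young and 12, 14 and 6 in aged vehicle libraries. Young replicate 1 was the highest library for Tlr9, Lamp3 and Knl1. In that library the 8 B cell markers other than the immunoglobulin genes Ighm and Igkc summed to 90.7 CPM, against 0.748 and 0.850 CPM in the other young libraries, 0.821 to 2.10 CPM with aged vehicle and 0.895 to 2.38 CPM with GB. With Ighm and Igkc the sum was 276 CPM in young replicate 1, 23.7 to 32.4 CPM in the other vehicle libraries and 113 to 168 CPM with GB. The 12 markers of T and natural killer cells were also highest in young replicate 1. They summed to 22.9 CPM there, 5.29 and 5.74 CPM in the other young libraries, 3.01 to 3.41 CPM with aged vehicle and 8.64 to 9.95 CPM with GB. The part of B, T or other immune cells in the counts of Tlr9 and Lamp3 was not tested. No gene of the 19 marker lists was itself a member.

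Neuronal genes included Syn1, the synaptic vesicle protein synapsin, with 11 to 19 counts in young and 6 to 13 in aged vehicle libraries. Slc17a7, a vesicular glutamate transporter, had 10, 33 and 35 and then 6, 6 and 10. Fndc9, a fibronectin type III domain gene, had 27, 39 and 72 in young and 44, 179 and 27 in aged vehicle libraries, where aged replicate 2 stood above the others. Of the 12 neuron markers 4 (Rbfox3, Nefl, Nefm and Nefh) were at 0 in each GB library. These had only 0 to 12 counts in the vehicle libraries, and Nefl was at 0 in every library. The other markers did not share a direction: Stmn2 had 180 to 367 counts with vehicle and 461 to 597 with GB, and Map2 had 116 to 188 with vehicle and 53 to 74 with GB. Fam124b had 31, 72 and 51 and then 28, 30 and 34.

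Processed pseudogenes share sequence with a parent gene, and reads may have been split between the copies, so their counts are uncertain. Got2-ps1, a copy of the mitochondrial aspartate aminotransferase gene Got2, had 53, 39 and 79 counts in young and 69, 76 and 64 in aged vehicle libraries. Got2 averaged 470 CPM with aged vehicle against 341 CPM with GB, and the pseudogene had 0.245% of its count in aged vehicle libraries. Rps2-ps3 had 10 to 21 counts in young and 16 to 26 in aged vehicle libraries, 0.0609% of those of the ribosomal protein gene Rps2. Rps2 averaged 525 CPM with aged vehicle against 1809 CPM with GB. Parents were thus counted in GB libraries at 0 for their copies, on both sides of the aged vehicle level. For Tdg-ps2, a copy of a DNA glycosylase gene, the parent Tdg was at 14.7 and 8.68 CPM. The parent of Smarca5-ps, a chromatin remodelling ATPase gene, was at 42.0 and 34.4 CPM.

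Some members share a neighbour and are not independent of each other. Gm38102 (188, 174 and 144 counts in young and 72, 137 and 120 in aged vehicle libraries) and 4932422M17Rik both overlap AI480526, which had 238 to 720 counts with vehicle and 54 to 71 with GB. Gm49458 and Gm25999 both overlap 1700120C14Rik, which had 416 to 683 counts with vehicle and 815 to 1051 with GB.

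The rule did not use the difference between aged and young vehicle libraries, but it set a floor of 5 counts in each of them. A gene near 0 in either vehicle group could thus not be a member. With that floor in the aged vehicle libraries only, the set held 400 genes. The shares over all genes tested, given beside the members, come from genes not held to this floor. In edgeR's quasi-likelihood test on the 6 vehicle libraries, 2261 of 17037 genes had an adjusted p under 0.05 (13.3%), 1180 higher (6.93%) and 1081 lower in aged libraries (6.35%). That number was 1069 without young replicate 2, 909 without its replicate 3, 1177 without aged replicate 2 and 936 without its replicate 3. Of the members, 184 passed the filter on low counts and 18 did not. Among those 184, 13 were called (7.07%), all 13 higher with age. None was called lower; DESeq2 called 2 lower, and other edgeR settings called 1 (no filter, robust=FALSE, all 9 libraries, or without aged replicate 1), 2 (replicate block) or 4 (without young replicate 1), and at an unadjusted p under 0.05 there were 32 higher and 10 lower. The called share of members lay below that of all genes in total and near it for genes higher with age. These shares are not matched for level: the median vehicle CPM was 0.320 for members and 8.76 for the other eligible genes. The count of members was 2 and 3 without young replicates 2 and 3, 7 and 6 without aged replicates 2 and 3, and 7 in a fit of all 9 libraries. Without young replicate 1, the count was 13 higher and 4 lower. The members' median log2 fold change, aged against young, was 0.34, beside 0.00 over all genes tested, and 0.16 without aged replicate 1.

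Members in same-strand introns made up 7 of the 13 called. Of the 45 tested, 38 had a log2 fold change above 0, with a median of 0.77. Over all 364 eligible genes so placed that were tested, 230 were above 0, with a median of 0.15, 20 called higher and 10 lower. The number of these members called was 2 without young replicate 2 and 2 without replicate 3, 4 without aged replicate 2 and 3 in the fit of all 9 libraries, and their median was 0.33 without aged replicate 1. The summed level of the 47 was 14.3 to 18.5 CPM in young against 27.1 to 39.9 CPM in aged vehicle libraries, with no overlap. Of the 40 TEC members, 36 were above 0, with a median of 0.62, and 6 were called (15%). Over all 231 eligible TEC loci tested, 152 were above 0, with a median of 0.22, 15 called higher and 2 lower (7.36%). The 231 include the members. The number of TEC members called was 1 without young replicate 2 or 3, 3 without aged replicate 2, 3 with the replicate number as a block and 2 in the fit of all 9 libraries. Among 36 protein-coding members tested, 16 were above 0, the median was -0.18 and 3 were called higher. None of these was called without young replicate 2 or aged replicate 3 and 1 without young replicate 3, and without young replicate 1 the median was 0.06, with 3 called higher and 4 lower.

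**Figure D5:**
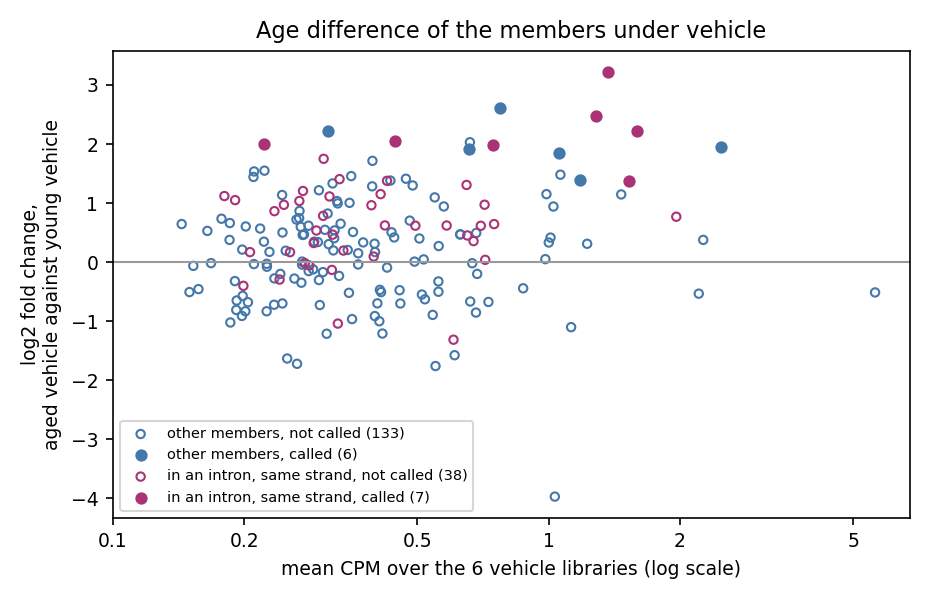
Log2 fold change of aged against young vehicle libraries (vertical axis) by mean CPM over the 6 vehicle libraries (horizontal axis, log scale) for the 184 members tested; filled points had an adjusted p under 0.05 in edgeR's quasi-likelihood test and colour marks members in same-strand introns. The 13 filled points, 7 of them in same-strand introns, all lie above 0.

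Gm38372 rose most among the called members. It averaged 0.263 ± 0.0676 CPM in young against 2.47 ± 0.210 CPM in aged vehicle libraries (SD, n = 3 each), a log2 fold change of 3.22 (SE 0.31, adjusted p = 0.000409), and it was called under each of 14 alternatives (adjusted p 4.11e-18 to 0.00463). Its host Pcmtd1 was at 79.8 ± 4.98 and 99.2 ± 5.38 CPM. The nested locus thus rose by more than its host in the same libraries; the difference between them was not tested. The other called TEC and intronic members had log2 fold changes of 1.37 (Gm28941) to 2.47 (Gm44667). The antisense members Gm16093 and Gm19395 had 2.62 and 2.23.

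Lrtm2, Myocd and Epha3 were the protein-coding members that rose with age. Lrtm2 went from 1.03 ± 0.598 to 3.95 ± 0.615 CPM, a log2 fold change of 1.95 (SE 0.46, adjusted p = 0.0319). Its adjusted p ranged from 6.76e-05 to 0.1 over the alternatives, and the call was lost without each library in turn except young replicate 1, with no filter on low counts and with the replicate block. Cacna2d4, around it, went from 0.942 ± 0.297 to 4.72 ± 0.389 CPM. Myocd went from 0.277 ± 0.0802 to 1.04 ± 0.434 CPM, a log2 fold change of 1.91 (SE 0.44, adjusted p = 0.0214, 0.00171 to 0.1 over the alternatives). It was not called in the fit of all 9 libraries (adjusted p = 0.072) or without young replicate 2 (0.0506), young replicate 3 (0.0848) or aged replicate 3 (0.1). Epha3 went from 0.460 ± 0.140 to 1.66 ± 0.496 CPM, a log2 fold change of 1.85 (SE 0.36, adjusted p = 0.0114, 9.12e-05 to 0.0594), and was not called without young replicate 2 (0.0511) or aged replicate 3 (0.0594).

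The largest negative value among the named members was not called. Asprv1 averaged 1.94 ± 1.61 CPM in young against 0.121 ± 0.0374 CPM in aged vehicle libraries, which did not overlap, a log2 fold change of -3.97 (SE 1.05, adjusted p = 0.0572, 8.03e-06 to 0.255 over the alternatives). It was called with robust=FALSE (adjusted p = 0.029), in the fit of all 9 libraries (0.0305), with the replicate block (0.0396) and with DESeq2 (8.03e-06). Without young replicate 1, it was also called (6.27e-05), as were Col6a5 (0.00389, against 0.134 with all libraries) and Adamts4 (0.0263, against 0.239). The skin sum of young replicate 1 was low only beside the other young libraries and within the aged vehicle range. Its fibroblast, tendon and adipocyte sums (2058, 349 and 281 CPM) were also below those of young replicates 2 (3412, 615 and 447) and 3 (3205, 615 and 442). The part of these cells was not tested. Mir1a-1 had a log2 fold change of 1.41 (SE 0.51, adjusted p = 0.0994), and its young and aged vehicle CPM did not overlap. The other 14 members named by the rule and reported here had adjusted p-values of 0.109 to 0.537.

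Close to the edge of the rule lay further genes. Of the eligible genes, 14929 had a count in all GB libraries, 682 were at 0 in 1 of them, 357 in 2 and 207 in all 3. Genes with 1 count over the GB libraries numbered 24, with H60b, 6430511E19Rik, H3c11 and Insl3 the highest in vehicle CPM (0.565 to 1.26). Genes at 0 with GB whose lowest vehicle count was 4 numbered 97, led by Gm38357, Phyhip, Alox12e and E030022I16Rik. Members whose lowest vehicle count was 5 numbered 25, led by Gm34499, D530017H19Rik, Gm26528 and Gm49927. In the reverse direction, 1 gene had at least 5 counts in each GB library and 0 in each vehicle library. That asks for 0 in 6 libraries with more counts each, so it is stricter than the rule. At 0 in each aged vehicle library, with at least 5 counts in each young vehicle and GB library, there was 1 gene. Between vehicle groups, 26 genes were at 0 in all aged libraries with at least 5 in each young one, and 9 the other way.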

How the data were processed

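RNA was sequenced from gastrocnemius muscle in 9 libraries. The authors deposited raw counts per gene, as whole numbers, with a gene length column per the file headers. Per the submitters' processing notes, FastQC, HISAT2, SAMtools and DESeq2 were used and the builds GRCm39 and mm10 are named; the sources used here name no counter, annotation or strand setting. The length equals the exon bases of GENCODE M21 (GRCm38) for 46640 of 48987 matched symbols (95.2%), so that annotation gave gene types and neighbours, by symbol, and no coordinates are printed.

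Groups came from the sample titles. The members, lists and tests were chosen with earlier results of these data known. The age comparison used edgeR 4.0.16 in R 4.3.3 on the 6 vehicle libraries (filterByExpr with minimum count 10 and total 15, TMM, glmQLFit with robust=TRUE, two-sided p-values, Benjamini-Hochberg adjustment). SE is the log2 fold change divided by the root of F. GB contrasts were described, not tested. Replicates of each group differed beyond sampling noise (chi-square per degree of freedom 16.6 to 60.4). On simulated counts of this comparison (5 sets, 16668 to 16688 genes tested, 200 changed), 26% of 1.5-fold, 60.6% of 2-fold and 84.4% of 4-fold changes were recovered, and 60 of 606 calls were false (9.9%), above the 5% that the adjustment aims at. A limit of 10% false calls had been missed on 1 simulated set, by 1 call, and was replaced after that run by the same limit over 5 sets pooled.

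Named members were the 10 highest in vehicle CPM with a gene name, the 4 highest others, the 4 longest, the 4 shortest and called gene names (1 of them is not reported here); the lists just outside the rule took 4 genes each. Other genes named, hosts and parents included, were chosen after their values were seen. Alternatives were other scalings, no filter, DESeq2 1.42.0, limma-voom (limma 3.58.1), robust=FALSE, a fit of all libraries, a replicate block, an adjusted p under 0.1, other minimum counts and leaving out each library. Host ratios by library totals and marker sums without Des or without Ighm and Igkc were added after seeing the data.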

Additional observations from a re-analysis of the deposited data

How the results depend on the processing

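The size of the set followed the rule. With a minimum of 3 vehicle counts it held 355 genes, with 10 counts 99, and with the aged vehicle libraries alone 400; leaving out 1 library gave 216 to 347. Genes called between aged and young vehicle libraries numbered 909 to 2493 when 1 library was left out and 3480 at an adjusted p under 0.1. Called members numbered 2 to 17 when 1 library was left out, 26 at an adjusted p under 0.1 (23 higher, 3 lower) and 7 in a fit of all 9 libraries. Of the 13 called members, 2 and 3 were also called without young replicates 2 and 3, 7 and 6 without aged replicates 2 and 3, and 13 with DESeq2. The members' median log2 fold change was 0.16 to 0.45 when 1 library was left out. The sign turned for 2 named members that were not called: Fndc9 was at -0.21 without aged replicate 2 and Tlr9 at 0.10 without young replicate 1. Leaving out any 1 library gave -0.21 to 1.36 for Fndc9 and -0.997 to 0.10 for Tlr9. For the 21 named members reported here, 271 of the other values kept their sign and side of the threshold, 8 gained the call and 13 lost it. The causes of these changes were not tested.

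The replicate numbers did not pair the libraries (correlations of deviations 0.0332, 0.0265 and 0.000667). With the replicate block, 2488 genes and 11 members (9 higher, 2 lower) were called; 8 of the 13 called members were also called, and Lrtm2 lost its call (adjusted p = 0.059). At the lowest member level in aged vehicle libraries, 12.6 counts by library totals and 8.49 by TMM-scaled sizes would have been present over the GB libraries.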
